A study of Homo sapiens with 8 samples.

Results

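G-quadruplex (G4) intervals at least 450 bp wide were examined in K562, a chronic myelogenous leukemia cell line, and in HepG2, a hepatocellular carcinoma cell line. The members were chosen by width alone, as intervals whose end minus start reached 450 bp in the high-confidence list of either line. They numbered 402 of 9205 intervals in K562 (4.37%) and 297 of 8776 in HepG2 (3.38%), the mitochondrial chromosome left out. The study mapped folded G4s in untreated cells of both lines by G4 ChIP-seq, in which formaldehyde-fixed, sonicated chromatin is precipitated with the BG4 antibody and sequenced beside input chromatin. For each line the labels give 3 precipitated libraries beside 1 input, whereas the lists merge 8 replicates of K562 and 9 of HepG2. The paper describes 3 independent experiments, each with 2 to 3 technical replicates, so the merged replicates are not all independent. A high-confidence interval is a stretch where the peaks of 5 or more of the 8 K562 replicates, or of 6 or more of the 9 HepG2 replicates, coincide, and a lower-confidence list requires 2 replicates. The intervals come without a height, a read count or a value per replicate, so width is the only size on record, depth is unknown and no spread between replicates exists. Shares are therefore given with 95% exact binomial intervals and medians with 95% order-statistic intervals, which cover the counting of intervals only. No test was made, since the members were selected on width and the 2 lists were not made with the same replicate rule. In bulk chromatin, a G4 folded in fewer cells and a G4 folded more weakly in each cell cannot be told apart, and the identity of the cells could not be checked against marker genes in lists of intervals.

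G4s are four-stranded structures that form in G-rich DNA, where guanines pair in stacked planar tetrads held together by potassium ions. In human chromatin they are found mainly in nucleosome-depleted promoters of active genes, and the BG4 antibody recognises the folded structure rather than a sequence. A ChIP-seq interval marks the stretch over which fragments were enriched, so a wide one can span several neighbouring G-rich tracts or a single tract with broad coverage.

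The sequences below show what the wide intervals hold. They are stretches of the hg19 reference, 5′ to 3′, chosen as the window with most G4 motifs inside an interval and without an annotated untranslated region. Capitals mark G4 motifs on the strand shown, each made of 4 runs with 3 or more G and of loops of 1 to 7 bases between them. A long run of G may be read as 2 runs with a G between them. CASP9 was the widest K562 interval (chr1:15851543-15851692, minus strand), MIR3687 the widest HepG2 interval (chr21:9826774-9826923, minus strand), and CCDC9 the locus with the greatest width in both lines (chr19:47759956-47760105, plus strand). FAH had the most motifs per kb in each line (chr15:80444943-80445092, plus strand), and LMTK3 held the widest member away from a transcription start site (TSS; chr19:48996553-48996702, minus strand).
CASP9: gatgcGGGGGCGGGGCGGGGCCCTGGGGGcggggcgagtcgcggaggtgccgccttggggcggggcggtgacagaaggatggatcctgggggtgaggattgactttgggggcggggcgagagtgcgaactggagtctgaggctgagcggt
MIR3687: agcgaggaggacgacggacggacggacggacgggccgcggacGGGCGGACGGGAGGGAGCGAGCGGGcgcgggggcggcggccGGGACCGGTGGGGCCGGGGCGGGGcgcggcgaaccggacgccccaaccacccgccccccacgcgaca
CCDC9: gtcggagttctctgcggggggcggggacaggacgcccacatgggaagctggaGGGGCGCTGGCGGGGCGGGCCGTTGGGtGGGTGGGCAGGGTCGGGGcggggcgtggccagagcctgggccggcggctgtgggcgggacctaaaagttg
FAH: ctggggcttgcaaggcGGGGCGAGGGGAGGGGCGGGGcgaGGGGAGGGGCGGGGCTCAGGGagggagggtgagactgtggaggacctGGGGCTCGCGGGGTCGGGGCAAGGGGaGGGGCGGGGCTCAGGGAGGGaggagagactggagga
LMTK3: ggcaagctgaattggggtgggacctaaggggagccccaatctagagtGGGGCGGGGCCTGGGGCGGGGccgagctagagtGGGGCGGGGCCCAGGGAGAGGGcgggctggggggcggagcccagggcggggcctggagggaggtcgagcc
The FAH stretch holds 4 motifs in 150 bp, the CCDC9, MIR3687 and LMTK3 stretches hold 2 each, and the CASP9 stretch holds 1. A contrast is the promoter shared by TSEN34 and MBOAT7 (chr19:54694014-54694103, plus strand), the locus with the greatest width in both lines among those without such a motif, a choice added after its values were seen. In the next line capitals mark motifs of 4 runs of at least 2 G, of which this stretch of 90 bp holds 2.
TSEN34: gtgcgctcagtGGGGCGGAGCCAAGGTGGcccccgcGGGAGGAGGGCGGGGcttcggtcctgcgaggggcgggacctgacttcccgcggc

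The wide intervals had a median width of 514 bp in K562 (interval 507 to 523) and 518 bp in HepG2 (507 to 530), against 195 and 169 bp over the whole lists. They made up 11.3% of all bases covered in K562 and 9.77% in HepG2. In K562, 87 members reached 600 bp and 23 reached 750 bp. In HepG2, the counts were 53 and 14. Just inside the threshold at 450 bp stood GRIN2D, which encodes an NMDA receptor subunit, and HDAC6, a cytoplasmic deacetylase, in K562, and NMRAL1 and TRAPPC12 in HepG2. Just outside it, 1 bp narrower, stood CDK4, a kinase of the G1 phase, and PPM1B in K562, and CBX8 and again HDAC6 in HepG2. HDAC6 (450 bp in K562 and 1 bp less in HepG2) and CDK4 (453 bp in HepG2) thus fell on opposite sides of the threshold in the 2 lines with nearly equal widths. The enclosing lower-confidence interval had a median width of 660 bp in K562 and 666 bp in HepG2, and the members covered a median of 82.4% and 80.1% of it. Over all high-confidence intervals this cover was 62.0% and 53.1%. Members were selected for the width that enters this share, so the selection alone favours a higher cover.

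Most wide intervals of one line lay where the other line also had a G4 interval, but the partner was usually narrower. Members were selected for width in one line and partners were not, so the selection alone favours narrower partners. Of the K562 members, 334 of 402 (83.1%, 79.1 to 86.6) overlapped a HepG2 high-confidence interval by 1 bp or more, against 51.1% of all K562 intervals. Of the HepG2 members, 259 of 297 (87.2%, 82.9 to 90.8) overlapped a K562 interval, against 53.9%. A wide interval is more easily touched than a narrow one, so the share whose single centre base lay inside an interval of the other line is the fairer comparison. It was 73.9% (69.3 to 78.1) of the K562 members against 46.8% of all K562 intervals, and 74.4% (69.1 to 79.3) of the HepG2 members against 50.9%. By this measure intervals of 300 to under 450 bp gave 73.1% in K562 and 73.8% in HepG2, within the counting intervals of the members, whereas those under 150 bp gave 25.6% and 35.5%.

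Where the other line had an interval, its median width was 414 bp (392 to 436) at the 334 K562 members and 461 bp (435 to 494) at the 259 HepG2 members, against 212 and 242 bp at all overlapping intervals of each list. The partner was itself at least 450 bp wide for 135 K562 members (33.6%) and 136 HepG2 members (45.8%), while 3.16% of all K562 intervals and 4.11% of all HepG2 intervals had a partner of that width. These 136 overlapping pairs left 563 distinct loci over both lines. The partner was under 450 bp for 199 K562 members, and 164 of these partners lay wholly inside the member. For HepG2, 86 of 123 such partners did. They covered a median of 65.6% of the K562 member and 62.2% of the HepG2 member. A partner was at most 1/2 as wide at 62 K562 and 47 HepG2 members, and wider than the member at 59 K562 and 77 HepG2 members. Over all 4824 overlapping pairs the widths had a Spearman correlation of 0.42 across loci, a description of loci that share sequence context and are not replicates.

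**Figure D1:**
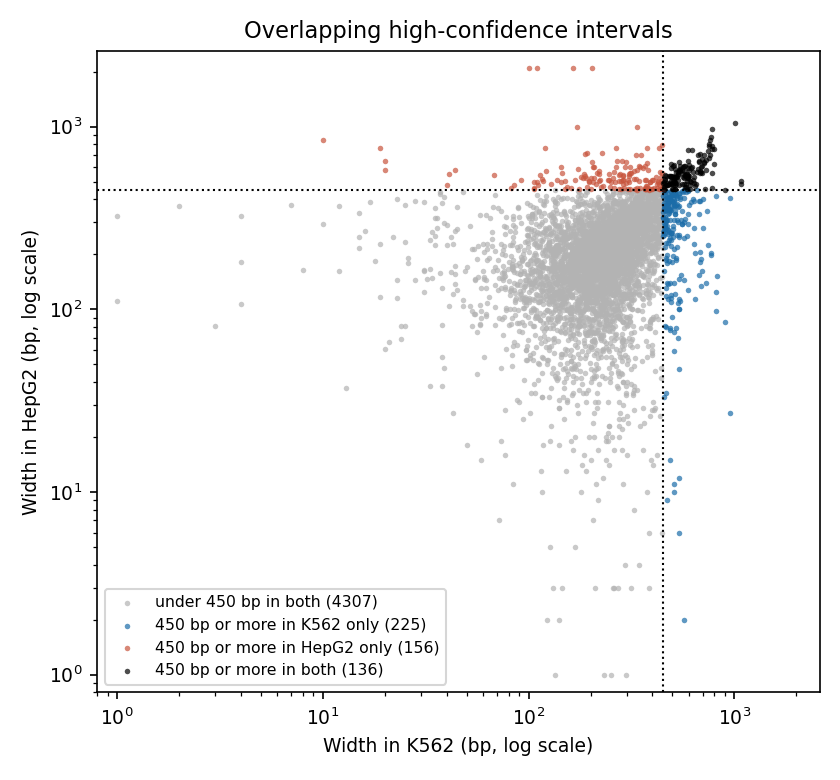
Width in K562 (x axis, bp, log scale) against width in HepG2 (y axis, bp, log scale) for the 4824 overlapping pairs of high-confidence intervals, one point a pair, with dotted lines at 450 bp. Black points are the 136 pairs wide in both lines, blue points the 225 pairs wide in K562 only, red points the 156 wide in HepG2 only and grey points the 4307 under 450 bp in both. An interval that overlaps several intervals of the other line gives several points, such as the row of 4 points at 2100 bp.

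At the 136 pairs wide in both lines the edges lay close together. The median shift of an edge was 30.5 bp, and at 59 pairs both edges lay within 50 bp of each other. CCDC9, which encodes a coiled-coil domain protein, was 1005 bp wide in K562 and 1042 bp in HepG2 (chr19:47759714-47760718 in K562), reached from 68 bp upstream of the TSS to 936 bp downstream and held 4 motifs. HTT, the gene mutated in Huntington disease, was 778 and 779 bp wide, with both edges shifted by about 60 bp, and held 4 motifs. VMAC (777 and 969 bp), DNPEP, an aspartyl aminopeptidase (774 and 876 bp), TSEN34, a subunit of the tRNA splicing endonuclease (758 and 842 bp), and TOMM40, the channel of the mitochondrial outer membrane translocase (757 and 801 bp), were wider in HepG2. RRM2B, a p53-inducible subunit of ribonucleotide reductase (798 and 757 bp), CARD19 (781 and 751 bp), the long noncoding RNA ENSG00000289222 (742 and 732 bp), PALM, which encodes a membrane-associated protein (712 and 702 bp), and SERTAD2 (758 and 697 bp) were wider in K562. RALY, an RNA-binding protein of the hnRNP family, was 752 and 778 bp wide. The motif number was the same in both lines at each of these 12 loci and ranged from 0 at TSEN34 and RRM2B to 9 at ENSG00000289222. The lines were about evenly placed over all 136 pairs, with the wider interval in K562 at 77 and in HepG2 at 59.

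The widest K562 member was at CASP9, the initiator caspase of the mitochondrial pathway of apoptosis. It was 1083 bp wide (chr1:15850610-15851692), from 471 bp upstream to 611 bp downstream of the TSS, and HepG2 had 2 intervals in it, of 502 and 482 bp, which together covered 90.5% of it. Elsewhere the width given for the other line is that of its widest overlapping interval. SKIL, a repressor of SMAD signalling, was 956 bp wide against 406 bp in HepG2 (beside a second interval of 27 bp), and MATN1-AS1, an antisense RNA, was 901 bp wide against 451 bp. The promoter between LRRC42 and IFT25 was 813 bp wide against 418 bp (beside a second interval of 98 bp), and EMD, which encodes the nuclear envelope protein emerin, 782 bp against 558 bp. The contrast was larger at YPEL1 (899 bp against 85 bp), UNC13A, a synaptic vesicle priming factor (819 bp against 152 bp), and DGCR8, the RNA-binding subunit of the microRNA microprocessor (811 bp against 125 bp). LMTK3 was 865 bp wide in K562 and had no high-confidence interval in HepG2, where the lower-confidence interval was 735 bp wide. SLC38A8, an amino acid transporter gene, held a member of 793 bp inside an intron against 623 bp in HepG2.

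The widest HepG2 member was 2100 bp wide (chr21:9825454-9827553), with its centre 300 bp downstream of the start of the microRNA gene MIR3687, and 4 separate K562 intervals of at most 203 bp lay in it. Of its stretches of 32 bases, 85.4% occur more than once in the hg19 reference, so its reads may come from other copies. The bidirectional promoter of MYL11, a myosin light chain, and TBC1D10B was 994 bp wide in HepG2 and held 2 K562 intervals, of 335 and 172 bp. ENSG00000266313 (788 bp against 444 bp), ENSG00000248787 (768 bp against 431 bp, with 50.7% of its 32-base stretches repeated in the reference) and the PEG10 intron nearest to SGCE, genes of an imprinted cluster (759 bp against 375 bp), had narrower K562 intervals. At SGCE a second K562 interval of 266 bp brought the covered share to 83.3%, and at ENSG00000248787 there were 3 K562 intervals, which covered 74.2%. The other 7 of the 12 widest HepG2 members had K562 partners of at least 752 bp.

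**Figure D2:**
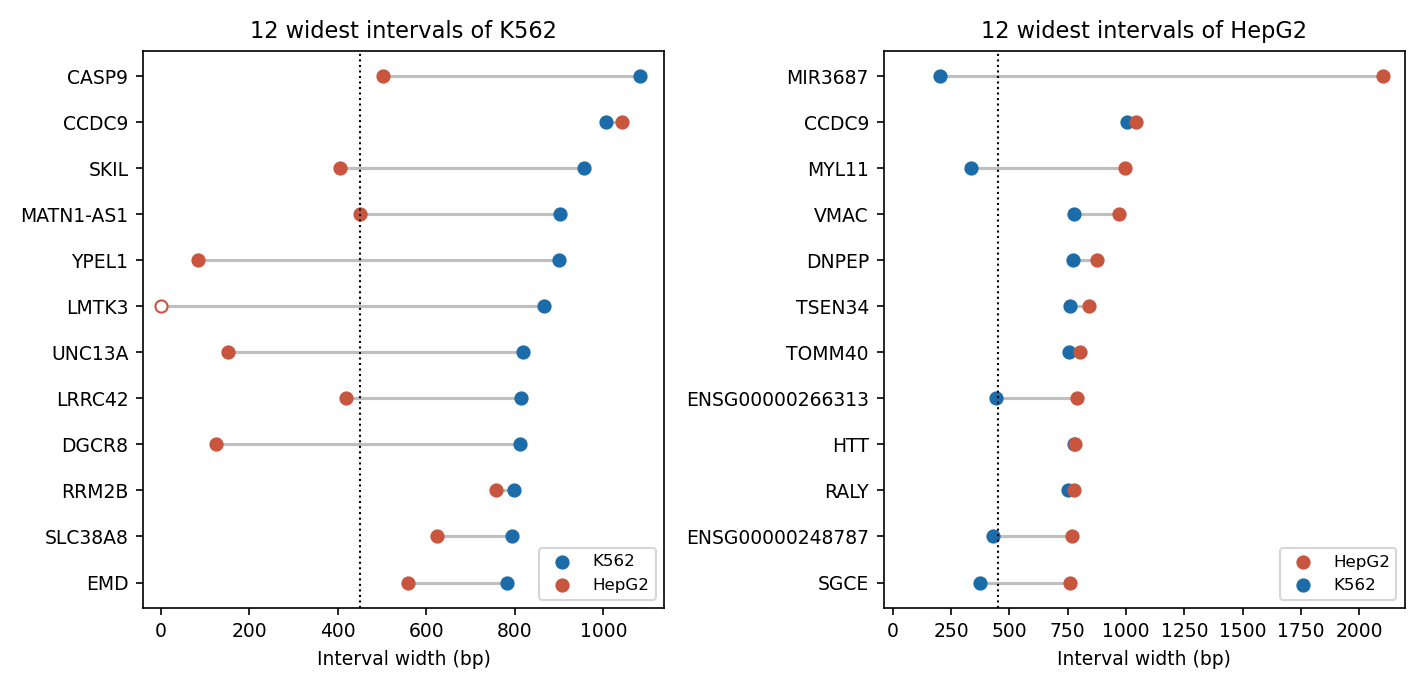
Interval width in bp (x axis) of the 12 widest high-confidence intervals of K562 (left) and of HepG2 (right), named by gene, beside the widest overlapping interval of the other line (blue K562, red HepG2), with a dotted line at 450 bp. The open circle at 0 marks LMTK3, which has no high-confidence HepG2 interval. The grey connecting lines are long at YPEL1, LMTK3, UNC13A, DGCR8 and MIR3687 and very short at CCDC9, HTT and RALY.

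Some wide intervals had no counterpart, a smaller share than in the lists. Of the K562 members 92.0% overlapped a lower-confidence HepG2 interval, against 75.6% of all K562 intervals. Of the HepG2 members 91.6% overlapped a lower-confidence K562 interval, against 67.1%. A wide interval is also more easily touched. In K562, 32 members overlapped no HepG2 interval of either list and another 36 overlapped a lower-confidence interval only. In HepG2, these counts were 25 and 13. The widest such K562 members lay at LYL1, a basic helix-loop-helix factor of blood cells (732 bp), PHF19, a Polycomb-associated protein (731 bp), BCR, the fusion partner of ABL1 in chronic myelogenous leukemia (665 bp), PCBP3, a poly(C)-binding protein (660 bp), and COLGALT1, a collagen galactosyltransferase (619 bp). The widest such HepG2 members lay at the long noncoding RNA ENSG00000288028 (637 bp), in intergenic DNA nearest to the pseudogene OR7E163P (575 bp) and to PPIF (554 bp), at DEAF1, a transcription factor (541 bp), and at GPT, the liver enzyme alanine aminotransferase (524 bp). All 5 in K562 had a TSS within 1 kb of their centre, while 2 of the 5 in HepG2 did not.

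Most wide intervals touched a promoter, as did most intervals of the lists. A promoter, the 1 kb upstream of an annotated TSS of any gene, was touched by 366 of 402 K562 members (91.0%, 87.8 to 93.6), against 81.1% of all K562 intervals. In HepG2 it was touched by 263 of 297 (88.6%, 84.4 to 91.9), against 69.6%. The centre of the member lay in a promoter in 87.8% and 85.2%, against 79.6% and 68.3% of the lists and 87.7% and 80.9% of the class of 300 to under 450 bp. Of the remaining K562 centres 26 were intronic, 7 in a 5′ UTR, 4 in a 3′ UTR, 6 in other exons and 6 intergenic. In HepG2, 25 were intronic, 14 intergenic and 5 exonic. The assigned gene was protein-coding for 373 K562 and 264 HepG2 members and a long noncoding RNA for 24 and 23. No TSS lay within 1 kb of the centre of 30 K562 members (7.46%), against 14.7% of the list, and of 32 HepG2 members (10.8%), against 26.3%. The widest of these in K562 were at LMTK3 (intron, 865 bp), UNC13A (exon, 819 bp), SLC38A8 (intron, 793 bp), FAAP20 (intron, 725 bp) and 4938 bp upstream of PALM (intergenic, 712 bp). In HepG2 they were at SGCE and PEG10 (intron, 759 bp), in the 3′ UTR of SDR42E2 (742 bp), upstream of PALM (702 bp), at SLC38A8 (623 bp) and in an intron of ST3GAL2, a sialyltransferase (591 bp). SLC38A8 and PALM were thus shared between the lines, and at ST3GAL2 and SDR42E2 the K562 partners were 492 and 622 bp wide.

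Members reached further from the TSS than narrower intervals on both sides, but they were selected for width, so this is no separate result. Among members whose centre was within 1 kb of a protein-coding TSS, 336 in K562 and 238 in HepG2, the upstream edge stood at a median of -404 bp (-421 to -373) in K562 and -436 bp (-468 to -401) in HepG2. The downstream edge stood at 127 bp (98 to 145) and 86 bp (66 to 116). In the class of 150 to under 300 bp the edges stood at -163 and 49.5 bp in K562 and at -178 and 32 bp in HepG2. The median share of bases upstream of the TSS was 75.5% in the K562 members, against 76.3% in that class and 75.6% in the class of 300 to under 450 bp. In HepG2, it was 84.0% against 84.8% and 81.4%. A wide interval also covers a TSS more easily than a narrow one. A coding TSS was covered by 297 of the 402 K562 members and by 186 of the 297 HepG2 members (73.9% and 62.6%), against 51.0% and 35.9% of the lists. In the class of 300 to under 450 bp these shares were 70.9% and 60.9%. Of the motifs in these promoter members, 54.4% in K562 (331 of 609) and 55.4% in HepG2 (185 of 334) lay on the strand of the gene, close to the 54.4% and 51.3% of the class of 150 to under 300 bp. Divergent promoters of coding genes up to 1 kb apart were touched by 47 K562 members (11.7%, 8.72 to 15.2), against 9.44% of the list, and by 43 HepG2 members (14.5%, 10.7 to 19.0), against 9.1%. The class of 300 to under 450 bp gave 12.1% in K562 and 14.6% in HepG2, within the counting intervals of the members.

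**Figure D3:**
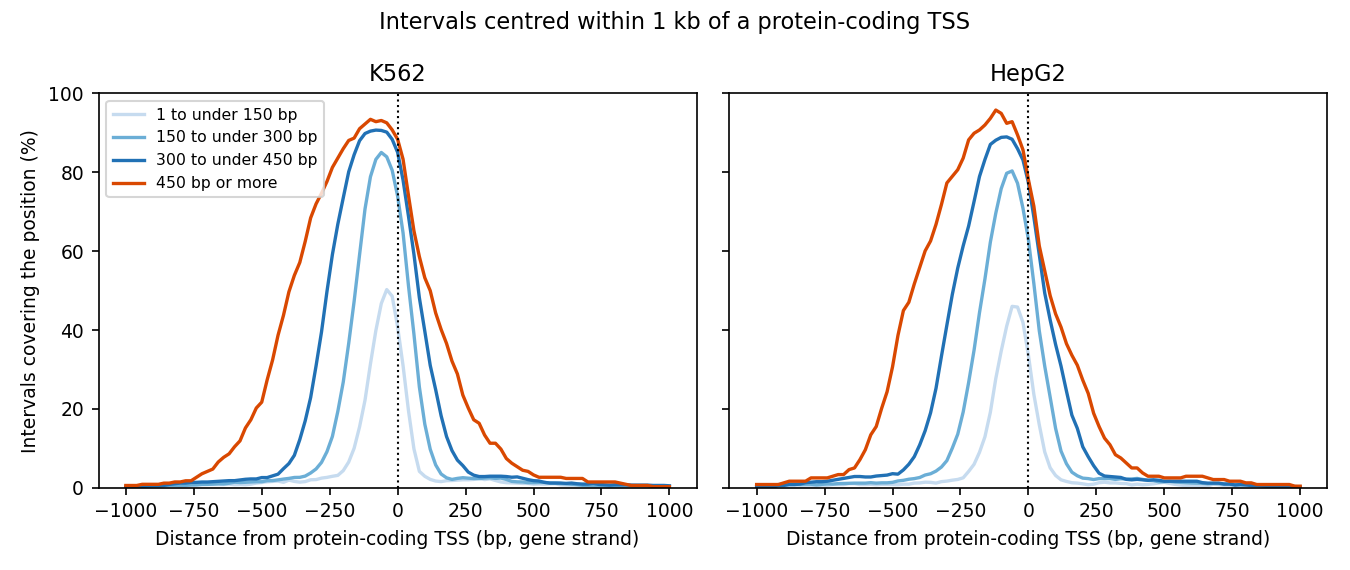
Percentage of intervals covering each position (y axis) from 1000 bp upstream to 1000 bp downstream of the protein-coding TSS (x axis, bp along the gene strand, steps of 20 bp), for the 4 width classes in K562 (left) and HepG2 (right). The orange curve of intervals of at least 450 bp extends further upstream than downstream of the TSS in both lines, with median upstream edges at -404 and -436 bp.

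The wide intervals held more G4 motifs than narrow ones, also where an equal length of sequence was searched. At least 1 motif lay in 289 K562 members (71.9%, 67.2 to 76.2), against 32.6% of all K562 intervals, and in 182 HepG2 members (61.3%, 55.5 to 66.9), against 20.6%. A longer interval has more room for a motif. The central 200 bp were therefore also searched at every interval, and at narrower ones this window includes flanking sequence. Of the K562 intervals under 150 bp, 13.4% held a motif, while 29.4% had one in this window. In the central 200 bp, the share was 47.0% in K562 (42.0 to 52.0) against 34.1% of the list, and 30.6% in HepG2 (25.4 to 36.2) against 22.6%. The class of 300 to under 450 bp gave 42.2% in K562 and 27.0% in HepG2, within the counting intervals of the members. Per kb of interval, motifs numbered 1.55 in K562 intervals under 150 bp, 2.21 in those of 150 to under 300 bp, 2.73 in those of 300 to under 450 bp and 3.46 in the members. In HepG2, the values were 1.06, 1.43, 1.80 and 2.56. These are motifs summed over a class divided by its summed length. The median over single intervals did not rise at the top in K562, with 2.51 in the class of 300 to under 450 bp and 2.17 (2.09 to 3.21) in the members. In HepG2, it was 0 and 1.89. These ratios also carry an edge effect, since a short interval may cut through a motif. Over the members, 99 K562 intervals held 1 motif, 150 held 2 to 4 and 40 held 5 or more. In HepG2, these counts were 68, 98 and 16. Motifs lay on 1 strand only in 232 K562 members and on both in 57. In HepG2, they did so in 161 and 21. The first counts include the 99 and 68 members with 1 motif, which can lie on 1 strand only.

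The densest members were tracts of repeated motifs, nearly all on 1 strand. FAH, the last enzyme of tyrosine breakdown, held 11 motifs in both lines (19.4 per kb over 566 bp in K562, 18.2 per kb over 605 bp in HepG2), all of them on the strand of the stretch shown above. In K562, PNPLA7 (intron, 10 motifs, 18.8 per kb), NMT2, a myristoyltransferase (10 motifs, 17.2 per kb), FAAP20, a protein of the Fanconi anaemia core complex (12 motifs, 16.6 per kb), and ARRDC1, an arrestin-like adaptor (9 motifs, 14.7 per kb), followed. In HepG2, ARRDC1 (8 motifs, 16.1 per kb), NCAPH2, a condensin II subunit (7 motifs, 14.4 per kb), STMN3, a stathmin (intron, 6 motifs, 13.2 per kb), and GSDMA, a gasdermin (8 motifs, 12.4 per kb), did so. The PNPLA7 member had no HepG2 interval in either list and FAAP20 had a high-confidence HepG2 interval of 140 bp and a lower-confidence one of 502 bp.

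Conversely, 113 K562 and 115 HepG2 members held no motif of this kind. The widest were RRM2B (798 bp), CRKL, a signalling adaptor (773 bp), and TSEN34 (758 bp) in K562, and MYL11 (994 bp), TSEN34 (842 bp) and ENSG00000266313 (788 bp) in HepG2. All 402 and 297 members held a motif with runs of at least 2 G, such as the 2 marked in the TSEN34 stretch, as did 89.6% of all K562 and 79.6% of all HepG2 intervals. RRM2B held 22 of these and TSEN34 held 8.

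The median GC content of the members was 72.2% in K562 (71.5 to 72.8) and 67.7% in HepG2 (66.7 to 69.2), against 70.3% and 65.2% over the lists. In the central 200 bp it was 72.5% and 67.5%, against 70.5% and 65% over the lists and 72% and 66.5% in the class of 300 to under 450 bp. The lines differed more from each other than the members did from their list. The 136 pairs wide in both lines had a median of 71.0% in K562, the 267 K562 members without a wide partner 72.9%, and the 161 such HepG2 members 65.3%. A motif was present in 72.3% of those 267 and in 52.8% of those 161. The lowest GC content was 49.6% in HepG2 and 57.3% in K562, and 38 HepG2 but 4 K562 members were under 60%. No such count is given for all intervals, whose median GC was also lower in HepG2. The ratio of observed to expected CpG was 0.84 in both the K562 members and their list, and 0.80 in the HepG2 members against 0.73.

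**Figure D4:**
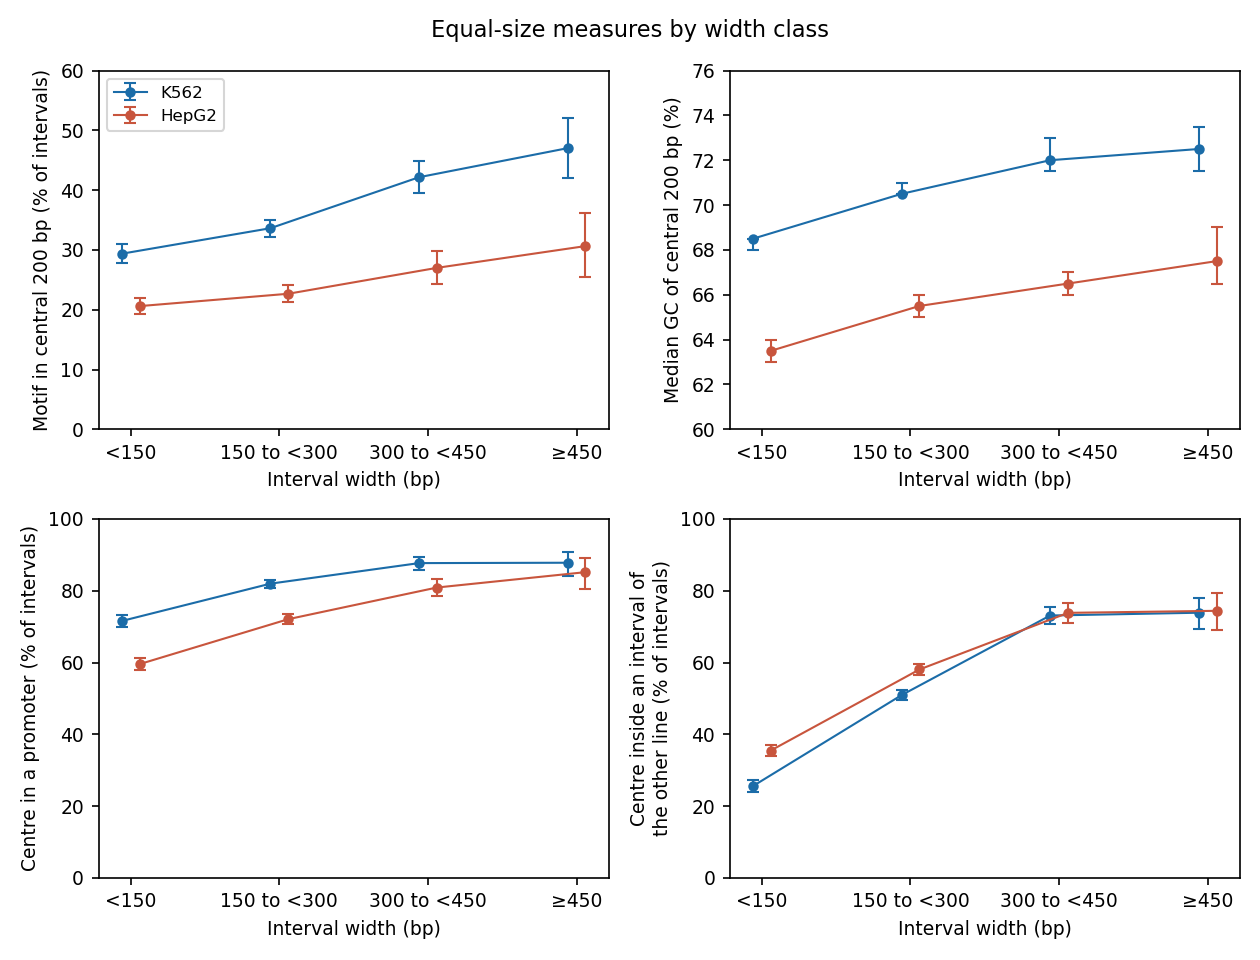
Measures that use the same length or a single base at the centre of every interval, for the 4 width classes (x axis, bp). K562 is blue and HepG2 red, with bars as 95% counting intervals. At intervals under 200 bp the central window includes flanking sequence. From the narrowest to the widest class, motifs in the central 200 bp rose from 29.4% to 47.0% of intervals in K562 and from 20.6% to 30.6% in HepG2, while the share of centres inside an interval of the other line levelled off at 300 bp. The axis of median GC (upper right) runs from 60 to 76% and does not start at 0.

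Short sequences that promoter factors are known to bind were counted in the same central 200 bp, on both strands, a choice made after the values above were seen. The GC box GGGCGG, bound by SP and KLF factors, was present in 85.8% of K562 members (82.0 to 89.1) against 74.5% of the list, and in 76.4% of HepG2 members (71.2 to 81.1) against 57.2%. It begins with a run of 3 G and so can be part of a G4 motif. The CCAAT box, bound by NF-Y, was present in 35.8% (31.1 to 40.7) against 31.1% in K562 and in 45.5% (39.7 to 51.3) against 35.0% in HepG2. The ETS core CCGGAAG was less common, at 7.21% (4.88 to 10.2) against 12.6% in K562 and 7.07% (4.43 to 10.6) against 11.5% in HepG2. TATAAA was found in 0.995% and 1.01% of members, near the 1.26% and 1.55% of the lists. The E-box CACGTG was found in 4.73% and 6.06%, against 7.95% and 8.09% of the lists. At intervals of the lists under 200 bp the window includes flanking sequence. A match of letters is not a bound site.

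The share of intervals that were wide varied over the chromosomes. In K562, 21 of 290 intervals on chromosome 22 were wide (7.24%, 4.54 to 10.9), 11 of 114 on chromosome 21 (9.65%, 4.92 to 16.6) and 64 of 1050 on chromosome 19 (6.10%, 4.73 to 7.72), against 4.37% of the list. In HepG2, 24 of 339 were wide on chromosome 14 (7.08%, 4.59 to 10.4) and 42 of 779 on chromosome 19 (5.39%, 3.91 to 7.22), against 3.38%. The lines differed on chromosome 1, where 59 of 1117 K562 intervals (5.28%) and 13 of 812 HepG2 intervals were wide, and on chromosome 14, where 5 of 179 K562 intervals were (2.79%). The 18 K562 members between chr22:19109807-23523256 were a choice made with their values in view. That stretch was drawn from the first of them to the last, which favours a high share inside it and a low share outside. These 18 members made up 14.4% of the 125 K562 intervals in the stretch, while 3 of 165 on the rest of the chromosome were wide (1.82%). Of the 29 HepG2 intervals in the stretch 0 were wide. Taken as 3 of 29, a rougher limit than the exact interval, this allows a share of up to 10.3%. The median width of the 18 K562 members was 557.5 bp. HepG2 had a high-confidence interval at 9 of them, of 85 to 334 bp, only a lower-confidence one at 5 and neither at 4. They included DGCR8, YPEL1, CRKL, PI4KA, a lipid kinase (748 bp against 225 bp), SEPTIN5 (608 bp, no HepG2 interval), SDF2L1 (593 bp against 334 bp), ZNF74 (589 bp, no HepG2 interval) and BCR. In HepG2, 10 members between chr14:20811288-24611162, chosen in the same way, made up 18.5% of 54 intervals, while 14 of 285 on the rest of the chromosome were wide (4.91%). K562 had an interval at 9 of these 10, with a median of 200 bp, and 1 of them was wide, at PPP1R3E (746 bp in HepG2, 597 bp in K562). Among the others, NRL was 706 bp wide against 187 bp, EMC9 560 bp against 146 bp and PABPN1, a poly(A)-binding protein, 534 bp against 286 bp. The input libraries were not analysed here.

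**Figure D5:**
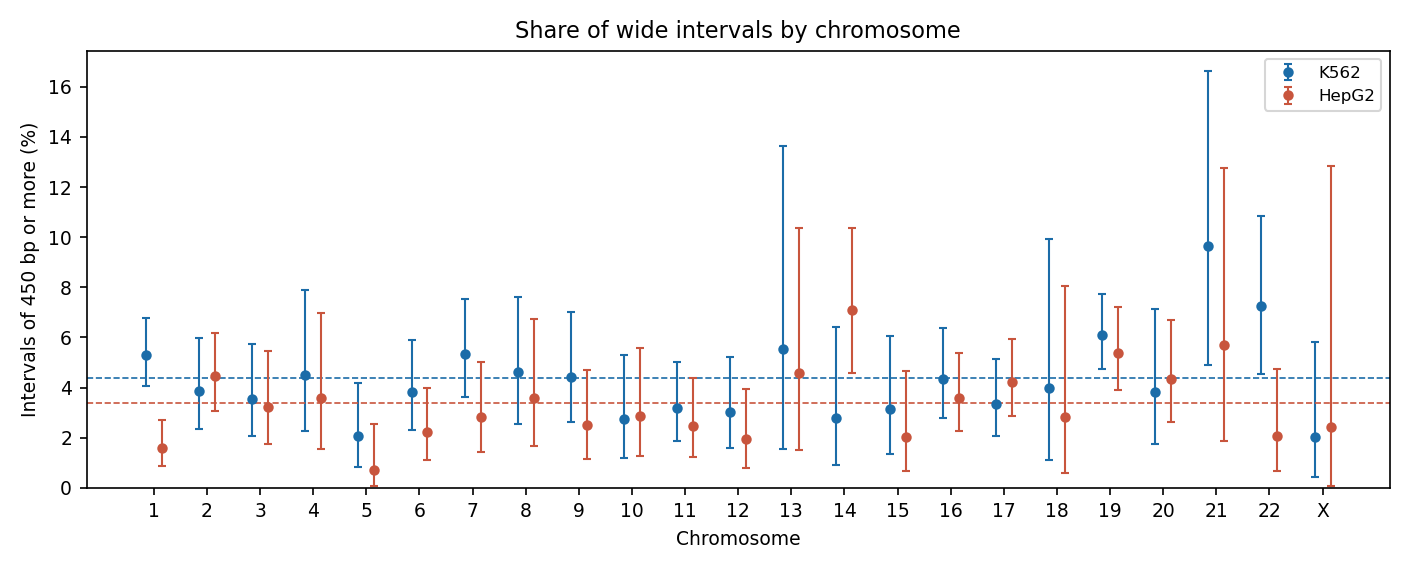
Percentage of high-confidence intervals that are at least 450 bp wide (y axis) on each chromosome (x axis) in K562 (blue) and HepG2 (red), with bars as 95% exact binomial intervals of counting and dashed lines at the values of the whole lists (4.37% and 3.38%). The whole bars of chromosomes 19, 21 and 22 lie above the K562 line, and those of chromosomes 14 and 19 above the HepG2 line. Chromosomes 13, 18, 21 and X have few intervals and broad bars.

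A protein-coding gene was counted as having a wide interval when one overlapped the 1 kb upstream of its TSS or the TSS itself. This held for 386 of the 6715 genes with any such interval in K562 (5.75%) and for 288 of 5713 in HepG2 (5.04%). Of the immediate early and stress response genes with an interval, 5 of 31 had a wide one in K562 and 3 of 30 in HepG2. These were JUND, a subunit of AP-1 (626 and 513 bp), TRIB1, a pseudokinase (624 and 599 bp), and PIM1, a survival kinase (521 bp in K562), in both lines, with EGR1 (519 bp against 192 bp) and DDIT4 (452 bp against 251 bp) in K562. Of the SP and KLF zinc finger factors, which bind GC-rich boxes, 4 of 13 in K562 were wide, namely KLF16 (709 bp), KLF10 (604 bp against 103 bp in HepG2), KLF3 (467 bp against 306 bp) and KLF13 (461 bp against 262 bp). In HepG2 1 of 11 was, KLF16 (630 bp). Caspases and BCL2 family genes gave 2 of 15 and 2 of 14, in each line CASP9 and BCL2L2, a survival factor (597 bp in K562, 746 bp in HepG2). A gene can be counted through an interval named by a neighbour, and the BCL2L2 widths are those given above for PPP1R3E. With so few members in a list, 1 gene more or less moves these shares by several percentage points.

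The other lists gave small counts. Cytosolic ribosomal protein genes had a wide interval in 1 of 41 cases in K562, RPL7 (465 bp), and in 0 of 46 in HepG2. Taken as 3 of 46, a rougher limit than the exact interval, the latter allows a share of up to 6.52%. ZNF genes had one in 7 of 187 and 2 of 183 cases, with ZNF217 (592 and 650 bp) and ZNF687 (468 and 476 bp) in both lines. Splicing factors had one in 3 of 66 and 2 of 78 cases, with SF3B6 (502 and 456 bp) in both. Chromatin regulators had one in 5 of 63 and 2 of 48 cases, with the histone demethylase KDM4B (585 and 486 bp) in both and the methyltransferase KMT2C (481 bp) without a HepG2 interval. Cyclins, cyclin-dependent kinases and their inhibitors had one in 2 of 27 and 3 of 24 cases, with CCNK (530 and 548 bp) in both, CCNE1 (492 bp) in K562, and CDK4 (453 bp) and CCNT2 in HepG2, where K562 had 259 bp at CCNT2. Of 32 erythroid genes, 14 had any interval in K562 and 5 in HepG2. Of 43 liver genes, 4 had one in K562 and 20 in HepG2. Among all 19794 protein-coding genes, 6715 and 5713 had one. Of the erythroid genes, LYL1 (732 bp) and ZFPM1, a GATA1 cofactor (685 bp), were wide in K562, 2 of 14, and ZFPM1 also in HepG2, 1 of 5. Of the liver genes, FASN, the fatty acid synthase (480 bp), was wide in K562, 1 of 4, and NR0B2, a nuclear receptor of bile acid control (467 bp), in HepG2, 1 of 20. Expression was not analysed here.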

How the data were processed

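Per the authors' methods, cutadapt trimming and BWA alignment to hg19 were followed by duplicate removal, MACS2 peak calling in each replicate (q under 0.05) and merging with bedtools multiinter. The 4 deposited lists hold interval positions, which is neither a count nor a signal. Intervals were read without the mitochondrial chromosome, and widths, overlaps (at least 1 bp), motifs (both strands, non-overlapping) and GC content were computed on GRCh37 with GENCODE release 44 lifted to that build, using Python 3.11.15, numpy 2.4.6 and scipy 1.17.1. Named genes were, per line, the 12 widest, the 5 densest in motifs, the 5 widest without a partner, the 5 widest without a TSS within 1 kb, the 3 widest without a motif and those at the threshold, plus the 12 loci widest in both lines and the gene-list members. The gene is the protein-coding gene of the nearest TSS if within 1 kb of the centre, otherwise that of the nearest TSS. Members and gene lists were chosen with earlier results of these data known. Overlap and motif functions, tested on simulated data, found 1000 of 1000 overlaps and 500 of 500 planted motif sets. Per-sample values, input libraries and depth were not analysed here.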

Additional observations from a re-analysis of the deposited data

Results flagged for a closer look

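The mitochondrial chromosome was left out above. The HepG2 high-confidence list holds 29 mitochondrial intervals, of which 4 are at least 450 bp wide and the widest is 979 bp, whereas the K562 high-confidence list holds 0. They were set apart because they lie outside every comparison made. The HepG2 list requires 6 of 9 replicates and the K562 list 5 of 8.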

How the results depend on the processing

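The 8 main quantities of each line were recomputed under the alternatives, and 46 of 78 values stayed inside the counting interval (or within 1.5 times, for counts). The number of members depended on the threshold, with 664 and 485 (K562 and HepG2) at 400 bp, 240 and 182 at 500 bp, and 1834 and 1851 in the lower-confidence lists. The median width in the other line was 372 and 426 bp at 400 bp, 463 and 504.5 bp at 500 bp, and 560 and 610 bp in the other line's lower-confidence list. Overlap with the other line was 68.2% and 75.4% when at least 50% of the member had to be covered, and 92.0% and 91.6% with the lower-confidence list. With coding TSSs alone, 82.3% and 79.8% touched a promoter. With TSSs of any gene, 87.8% of K562 centres lay in a promoter. The share with a motif was 77.1% in K562 at 500 bp, 88.6% and 80.8% with loops of 1 to 12, 100% in both with runs of 2 G, and 47.0% and 30.6% in the central 200 bp. Motifs per kb had medians of 2.17 and 1.89, which became 5.23 and 3.97 with the longer loops and 20.9 and 17.4 with runs of 2 G. Counting noncoding TSSs, 30.3% and 34.3% touched a divergent promoter. Merging intervals within 100 bp changed no value beyond these limits. Centre-base overlap, TSS edges, short sequences, chromosomes and gene lists were not recomputed. Depth is unknown, and no replicate can be left out of a merged list. Fragments of 100 to 500 bp per the labels and the unequal replicate rule bear on width, and their part was not tested. No paired analysis was possible because the lists merge the replicates.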

Other observations

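The FAM86 gene family, which includes the methyltransferase gene EEF2KMT and several pseudogenes, recurred among the members, a group chosen after its values were seen. In K562 it gave 3 wide intervals, at FAM86GP (689 bp), FAM86EP (672 bp) and EEF2KMT (598 bp). In HepG2 it gave 5, at FAM86C2P (703 bp, 351 bp in K562), FAM86KP (643 bp, 297 bp in K562), FAM86EP (638 bp), FAM86GP (598 bp) and EEF2KMT (592 bp). Their GC content ranged from 69.3% to 71.1% and each held 2 to 4 motifs. Of the 32-base stretches in these intervals, 45.7% at FAM86C2P, 43.3% at FAM86KP and 37.6% at EEF2KMT in HepG2 occur more than once in the hg19 reference, so reads of one copy may have been placed at another. This was uncommon among the members. The repeated share was under 10% in 384 of 402 K562 members and 279 of 297 HepG2 members, and over 50% in 0 and 2, the MIR3687 locus and ENSG00000248787 (50.7%).

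The lower-confidence lists hold many more wide intervals. In K562, 1834 of 19231 reach 450 bp, of which 401 hold a wide high-confidence interval, 1384 hold only narrower ones and 49 hold none. In HepG2 these are 1851 of 28367, with 296, 1447 and 108. A single lower-confidence interval held up to 4 high-confidence intervals in each line, and 315 in K562 and 259 in HepG2 held at least 2. The widest in K562, 2243 bp, lies at TSEN34, where the high-confidence interval was 758 bp wide.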
